A study of Rattus norvegicus with 6 samples.

Results

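The miRNAs described here are those of the imprinted miR-379/miR-410 cluster in peri-infarct rat cortex, read by small RNA sequencing. Members were chosen by name, as every row of the count table whose number after rno-miR- belongs to a list of 32 numbers of this cluster, and 30 of those numbers had a row. The rule took 59 rows, 11.97% of the table, which are 27 5p arms, 30 3p arms, and 2 miRNAs named without an arm, miR-495 and miR-668. They come from 33 hairpins, and both arms were listed for 26 of these. All rats were male Sprague Dawley animals whose right middle cerebral artery was occluded for 90 min (MCAO) and then reperfused. The MCAO group (n = 3) was labelled as tissue at 7 days after reperfusion, or after surgery for replicate 3. The MCAO + rTMS group (n = 3) had the same occlusion and received repetitive transcranial magnetic stimulation (rTMS) at 10 Hz for 10 min a day on 7 consecutive days. Its labels give no collection time, and the study's methods place the coil over the motor cortex of the occluded side. Neither labels nor methods describe a sham stimulation of the MCAO group, and no library of rats without occlusion was analysed here, so the handling of stimulation and the stimulation itself cannot be told apart.

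The cluster lies in the Dlk1-Dio3 domain, where its hairpins are cut from long noncoding RNA made from the maternal chromosome only. Drosha and Dicer release a duplex from each hairpin, and either strand, the 5p or the 3p arm, can be loaded into Argonaute and silence mRNAs that pair with its seed. In brain the cluster is mainly neuronal, and in neurons its transcription rises with activity through Mef2. Its best known members act at dendrites and synapses.

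The mature sequences were taken from RefSeq (build GRCr8), in which all 59 members had an entry on chromosome 6, within 36.4 kb. There, 58 lay on the forward strand, and miR-299b-3p lay on the opposite one. The first set holds members that were higher in the MCAO + rTMS group and on which the results below turn. Capitals mark the seed, bases 2 to 8 from the 5′ end.
miR-485-5p: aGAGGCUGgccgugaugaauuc
miR-485-3p: cAUACACGgcucuccucucuuc
miR-323-5p: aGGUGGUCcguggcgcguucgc
miR-323-3p: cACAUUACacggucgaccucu
miR-379-5p: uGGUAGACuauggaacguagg
miR-134-5p: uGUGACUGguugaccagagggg
miR-412-5p: uGGUCGACcagcuggaaagu

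The second set holds members that were lower under rTMS. It is set beside the first because these sequences carry more A and U, a property taken up further down.
miR-376a-5p: gGUAGAUUcuccuucuaugag
miR-376b-3p: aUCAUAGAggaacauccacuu
miR-369-3p: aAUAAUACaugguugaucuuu
miR-369-5p: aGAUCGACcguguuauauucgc
miR-487b-3p: aAUCGUACagggucauccacuu
miR-410-3p: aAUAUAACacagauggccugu
miR-380-3p: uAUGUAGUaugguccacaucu
miR-494-3p: uGAAACAUacacgggaaaccucu

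Few members share a seed. The seed GGUUGUC occurred in miR-410-5p, miR-494-5p, and miR-496-5p, and the other shared seeds each joined a pair, miR-376b-5p with miR-376c-5p, miR-381-3p with miR-539-3p, and miR-299a-3p with miR-299b-3p. The last pair is shown because its members cannot be counted apart with certainty.
miR-299a-3p: uAUGUGGGacgguaaaccgcu
miR-299b-3p: uAUGUGGGacgguaaac
The whole of miR-299b-3p is contained in miR-299a-3p, and their levels were nearly equal in every library, so both are reported as uncertain.

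Library totals ran from 10492610 to 15411620 counts. Levels are given as CPM, counts as a share of a library total that was first scaled by edgeR's trimmed mean of M values (TMM), and the TMM factors were 1.16 to 1.39 in the MCAO group against 0.695 to 0.864 in the MCAO + rTMS group. MCAO + rTMS replicate 3 stood apart from its group. Its log2 CPM correlated with those of the other 2 at r = 0.972 and 0.977, against 0.995 between those 2 and 0.987 to 0.996 among the MCAO libraries (across 233 miRNAs, which are not independent replicates). Without this library, 12 members were called higher and 18 lower, against 14 and 17 with it. Over all 468 rows tested without this library, 122 were higher and 131 lower. Single results that change are given both ways. The table lists no count between 0 and 10, so a listed 0 can stand for up to 9 counts.

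The summed level of the cluster depended on the scaling. Members made up 1.35%, 1.25%, and 1.58% of all counts in the MCAO libraries and 1.37%, 1.40%, and 1.31% in the MCAO + rTMS libraries. Those values overlap (1.39% ± 0.165 versus 1.36% ± 0.0483; SD, n = 3). On the TMM-scaled total the sum was 11155 ± 267 versus 16940.5 ± 1590 CPM (n = 3), 1.52-fold higher in the MCAO + rTMS group. In bulk cortex, fewer cells of a type and less RNA per cell cannot be told apart, which holds for every level below. Counts were concentrated in few members. The leading 3, miR-543-3p, miR-323-3p, and miR-541-5p, held 38.3% of all counts of the cluster, and the leading 8 held 70.3%.

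The members did not move as a block. Of the 55 that passed the filter on low counts, 14 had risen and 17 had fallen under rTMS at an adjusted p under 0.05 (edgeR quasi-likelihood test, Benjamini-Hochberg adjustment over all 452 tested rows). Over all tested rows the shares were 27.2% higher and 28.1% lower, or 55.3% in all, close to the 56.4% of the cluster. The 3 libraries of one group did not overlap those of the other for 40 of the 55 members, or 72.7%, against 66.8% of all tested rows. The members' median log2 fold change was -0.13, against -0.21 over all tested rows. With library totals in place of TMM, the calls became 4 higher and 27 lower (12.2% and 46% of all tested rows), and the median over all tested rows moved from -0.21 to -0.80. The 4 that stayed higher were miR-485-5p, miR-485-3p, miR-323-5p, and miR-666-5p, and all 17 lower calls were kept. With upper-quartile factors there were 10 higher and 25 lower calls, against 85 and 172 of all 452 tested rows.

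**Figure D1:**
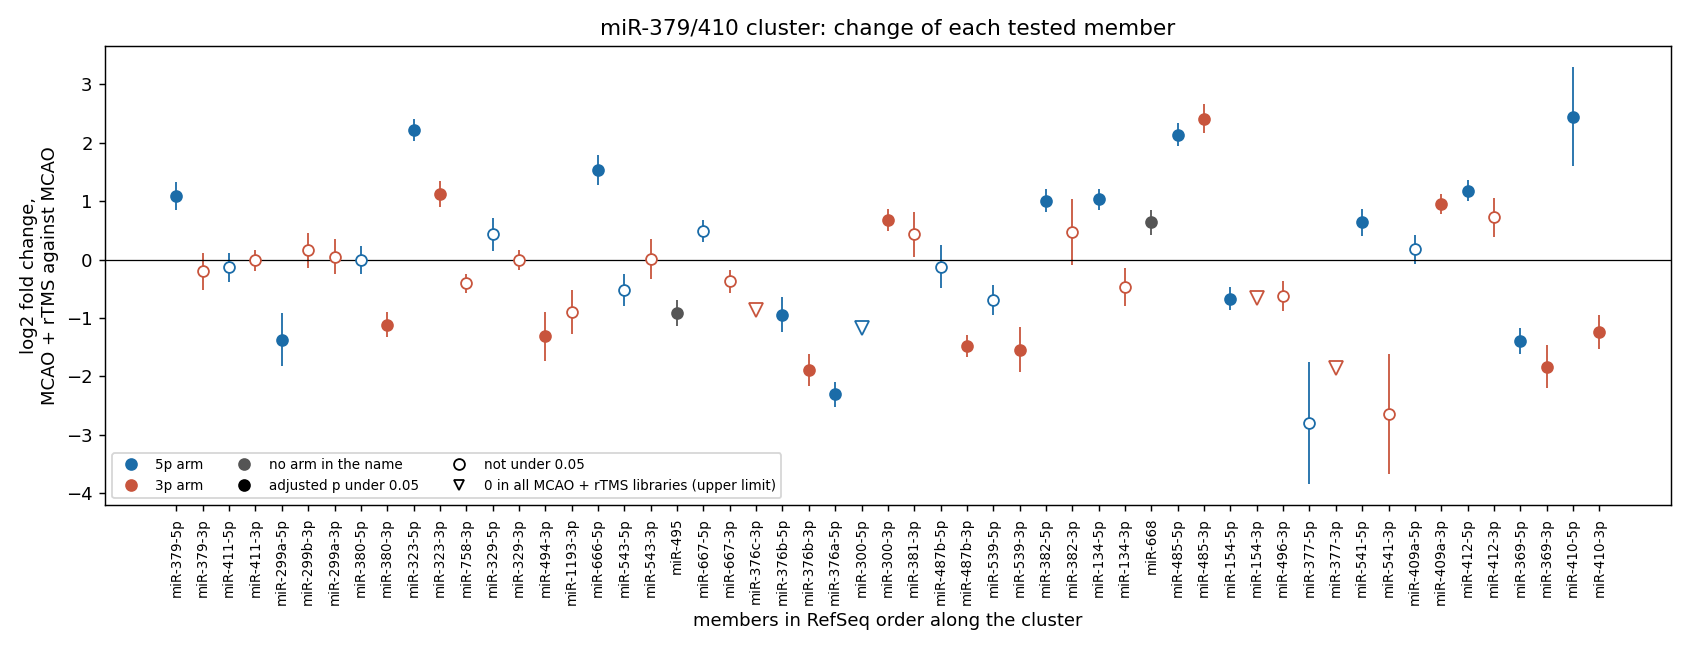
Log2 fold change (MCAO + rTMS over MCAO, TMM-scaled) of the 55 tested members, in their order along the chromosome; bars are standard errors, filled points have an adjusted p under 0.05, and triangles mark upper limits for the 4 members listed at 0 in all MCAO + rTMS libraries. Higher and lower members are interspersed along the cluster, and among those with a count in every library miR-485-3p is highest and miR-376a-5p lowest.

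Among members with a count in every library, the largest increases were those of miR-485-3p, miR-323-5p, and miR-485-5p. miR-485 is a hairpin with known targets among presynaptic and plasticity genes. The level of miR-485-5p was 241, 268, and 258 CPM in the MCAO libraries and 999, 1035, and 1350.2 CPM in the MCAO + rTMS libraries. All 3 stimulated libraries lay far above all 3 unstimulated ones, a log2 fold change of 2.14 (SE 0.20, adjusted p = 0.00027 by edgeR). Its 3p partner stood at 166, 167, and 169 CPM versus 664, 840.0, and 1169.5 CPM, with a log2 fold change of 2.41 (SE 0.25, adjusted p = 0.00035 by edgeR). The share of the cluster's own counts, which does not depend on the scaling, rose with them. For miR-485-5p it went from 2.30% ± 0.169 to 6.63% ± 0.493 and for miR-485-3p from 1.50% ± 0.0336 to 5.20% ± 1.02 (SD, n = 3).

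The hairpin of miR-323 was the other one with both arms called higher. Its minor arm, miR-323-5p, measured 17.8, 17.2, and 18.5 CPM in the MCAO group against 76.2, 76.4, and 98.3 CPM in the MCAO + rTMS group. The log2 fold change was 2.23 (SE 0.19, adjusted p = 0.00025 by edgeR), and the groups were well apart. The major arm, miR-323-3p, measured 1210.3, 1083, and 1253 CPM against 3019, 2850.2, and 1887 CPM. Its log2 fold change was smaller, 1.13 (SE 0.22, adjusted p = 0.0051 by edgeR), and replicate 3 was the lowest of the stimulated libraries. miR-666-5p, the major arm of its hairpin, is a member that the criteria for single description, given under processing, did not pick. It is included because its call held in every alternative. Its level was 3.78 ± 0.600 versus 11.0 ± 2.44 CPM (n = 3, log2 fold change 1.53, adjusted p = 0.0026 by edgeR).

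A second group of members roughly doubled on the TMM scale. miR-134-5p, which represses Limk1 and Pumilio2 in dendrites, stood at 153, 144, and 173 CPM in the MCAO libraries and 288, 310.3, and 363 CPM in the MCAO + rTMS libraries, without overlap (log2 fold change 1.03, SE 0.18, adjusted p = 0.0031 by edgeR). miR-379-5p, the first miRNA of the cluster, ranged from 682 to 1174 CPM in the MCAO group and from 1741 to 2218 CPM in the MCAO + rTMS group (log2 fold change 1.09, SE 0.24, adjusted p = 0.0080 by edgeR). miR-412-5p measured 42.8 ± 5.53 versus 96.9 ± 6.22 CPM, miR-382-5p 625 ± 99.8 versus 1261 ± 164 CPM, and miR-409a-3p 533 ± 42.7 versus 1029 ± 74.9 CPM (n = 3). Their log2 fold changes were 1.18, 1.01, and 0.95, with adjusted p of 0.0018, 0.0051, and 0.0034 by edgeR. Each of these 5, and miR-323-3p, lost its call on library totals, where their log2 fold changes lay between 0.31 (miR-409a-3p) and 0.53 (miR-412-5p). The shares of the cluster's own counts were 1.41% ± 0.111 versus 1.89% ± 0.0633 for miR-134-5p and 8.45% ± 2.22 versus 11.8% ± 1.11 for miR-379-5p.

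Calls also differed in number between abundant and scarce members on the TMM scale. Of the 10 members with a mean count above 5000 over all libraries, 8 were higher and 0 lower, and outside the cluster this band held 88 tested rows with 33 higher and 12 lower. A rise itself can lift a member into this band, as it did for both arms of miR-485, whose MCAO counts were all below 5000. By the MCAO libraries alone, 9 members had a mean count above 5000, with 6 higher and 1 lower. Rows outside the cluster were not counted by that band. On library totals, the 10 members had 2 higher and 1 lower calls, and the 88 rows outside had 18 and 37. Of the 27 with a mean count of 200 to 5000, 4 were higher and 11 lower, against 52 and 54 of 161 rows outside. Of the 22 below that, 18 were tested, with 2 higher and 6 lower, against 24 and 44 of 148 rows outside. These bands were drawn after the values had been seen. Spearman's rho between the log2 mean count and the log2 fold change was 0.52 over the 55 members, 0.40 over the 48 with a count in every library, and 0.29 over 397 tested rows outside the cluster. The points share libraries and depth, so these are descriptions.

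The most abundant member, miR-543-3p, had the widest spread in CPM among the MCAO + rTMS libraries (SD 1037). It measured 1989, 1909, and 2041 CPM in the MCAO group and 1300.3, 1501, and 3188 CPM in the MCAO + rTMS group. MCAO + rTMS replicates 1 and 2 lay below every MCAO library and replicate 3 above every one. The log2 fold change was 0.012 (SE 0.34, adjusted p = 0.98 by edgeR) with all libraries and -0.48 (adjusted p = 0.027) without MCAO + rTMS replicate 3. Its share of the cluster was 17.7% ± 0.257 versus 11.5% ± 4.79. Next to the threshold, miR-541-5p was just inside at 1184 ± 152 versus 1848 ± 442 CPM (log2 fold change 0.64, adjusted p = 0.047 by edgeR). Its call was lost on leaving out any library except MCAO + rTMS replicate 1.

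**Figure D2:**
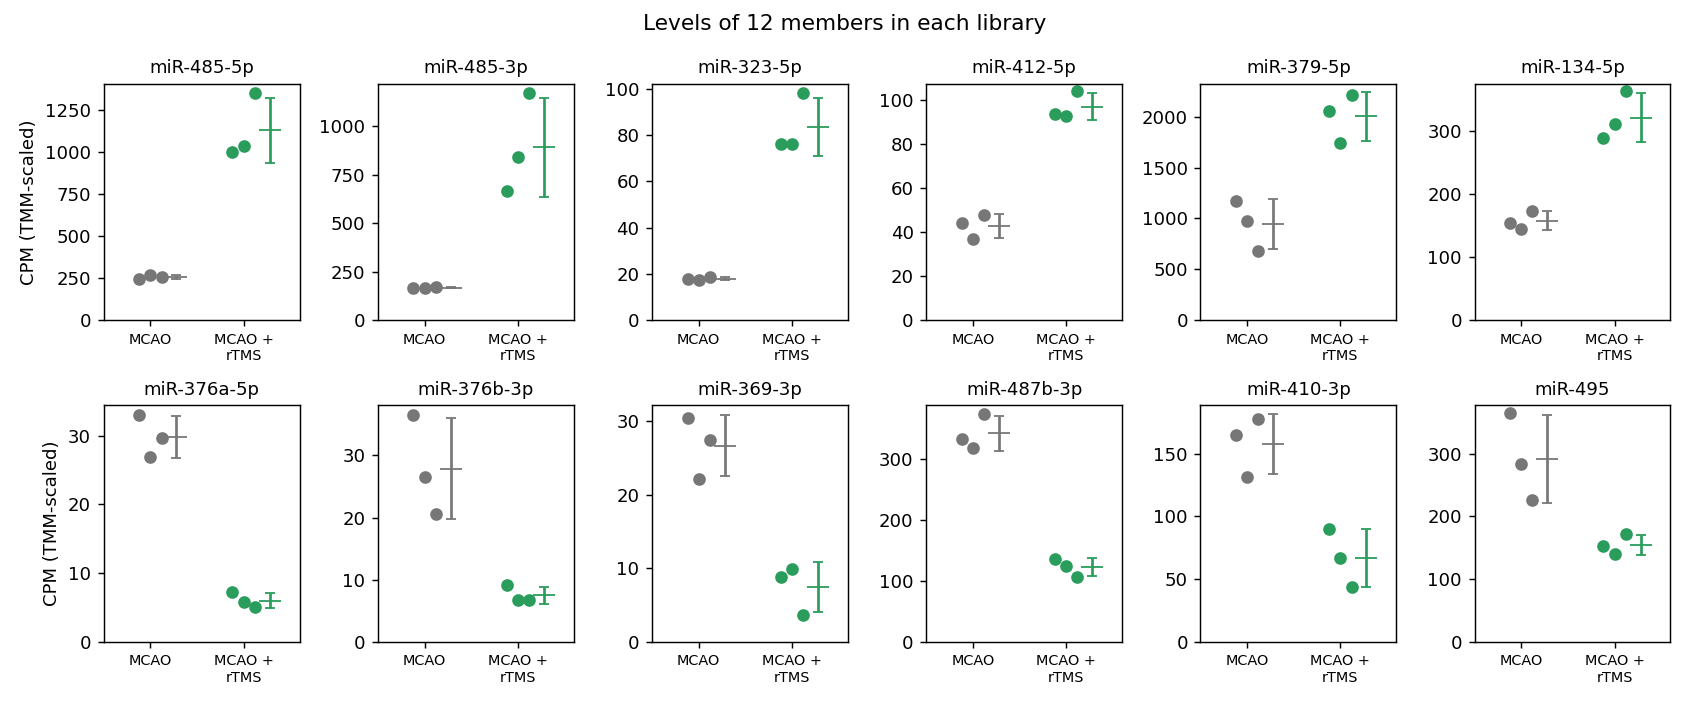
Level in each library (CPM on the TMM-scaled total, linear axis) of 12 members, 6 that rose and 6 that fell under rTMS. Points are libraries and bars the mean ± SD of 3. In every panel the groups are apart, from 241 to 1350.2 CPM for miR-485-5p to 5.05 to 33.0 CPM for miR-376a-5p.

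The largest decreases with reads in every library were found in the miR-376 and miR-369 hairpins. Hairpins of miR-376 are known for A-to-I editing in brain, which counts per miRNA cannot show. miR-376a-5p stood at 33.0, 26.8, and 29.6 CPM in the MCAO libraries and 7.22, 5.73, and 5.05 CPM in the MCAO + rTMS libraries. Every stimulated library was thus far below every unstimulated one (log2 fold change -2.31, SE 0.22, adjusted p = 0.00027 by edgeR). miR-376b-3p fell from 36.5, 26.6, and 20.5 CPM to 9.10, 6.74, and 6.71 CPM (log2 fold change -1.89, SE 0.28, adjusted p = 0.0016 by edgeR). Its 5p partner, miR-376b-5p, changed less, from 39.7 ± 9.84 to 20.7 ± 6.77 CPM (n = 3; log2 fold change -0.94, adjusted p = 0.030 by edgeR). That call was lost without MCAO replicate 1 or 2 or MCAO + rTMS replicate 1 or 2 (adjusted p = 0.080 to 0.121).

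Both arms of miR-369 were lower. The 5p arm measured 308, 273, and 234 CPM against 101, 82.3, and 128 CPM, and the 3p arm, which has the lowest GC content of the members, 30.4, 22.2, and 27.4 CPM against 8.80, 9.95, and 3.60 CPM. Neither arm overlapped between groups, with log2 fold changes of -1.39 (SE 0.22) and -1.83 (SE 0.37) and adjusted p of 0.0022 and 0.0055 by edgeR. miR-487b-3p, among the more abundant members, stood at 334, 319, and 375 CPM and then at 136.4, 125, and 106 CPM, a log2 fold change of -1.48 (SE 0.18, adjusted p = 0.00079 by edgeR). As a share of the cluster it fell from 3.07% ± 0.214 to 0.734% ± 0.151.

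miR-410-3p, at the far end of the cluster from miR-379, measured 165, 131, and 177 CPM in the MCAO group and 90.1, 66.4, and 43.7 CPM in the MCAO + rTMS group. The groups did not overlap (log2 fold change -1.24, SE 0.29, adjusted p = 0.0094 by edgeR). Its direction was opposite to that of miR-379-5p, while the other arms of these hairpins, miR-410-5p and miR-379-3p, were higher with listed 0 values and not called (log2 fold change -0.20, adjusted p = 0.62 by edgeR), respectively. miR-495, a miRNA known to target Bdnf, was at 366, 284, and 226 CPM and then at 152, 139.5, and 171 CPM (log2 fold change -0.92, SE 0.22, adjusted p = 0.012 by edgeR), a call lost without MCAO + rTMS replicate 2 (adjusted p = 0.074). miR-380-3p fell from 39.3 ± 8.07 to 18.2 ± 2.05 CPM (n = 3; log2 fold change -1.11, adjusted p = 0.0046 by edgeR). miR-494-3p was at 77.7, 88.7, and 104 CPM and then at 44.7, 49.7, and 14.5 CPM (log2 fold change -1.31, SE 0.42, adjusted p = 0.032 by edgeR). Its replicate 3 was again the lowest, and the call was lost without any 1 of the MCAO libraries or MCAO + rTMS replicate 1 (adjusted p = 0.052 to 0.10).

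Of the 17 lower calls 8, and of the 14 higher calls 4, held in every alternative fit that tested them. The lower ones were miR-376a-5p, miR-376b-3p, miR-369-5p, miR-369-3p, miR-487b-3p, miR-410-3p, miR-380-3p, and miR-377-3p. Calls held in every alternative were not counted outside the cluster, so these counts have no share over all rows beside them. No call shared with an alternative turned its direction. For miR-329-3p and miR-381-3p, which with miR-134 are linked to activity-dependent dendrite growth, no difference was called. miR-329-3p measured 258, 247, and 260.0 CPM versus 273, 272, and 216 CPM (log2 fold change -0.0065, SE 0.18, adjusted p = 0.98 by edgeR). miR-381-3p was low in both groups, 4.27 ± 1.50 versus 5.75 ± 2.25 CPM (n = 3; log2 fold change 0.43, SE 0.39, adjusted p = 0.37 by edgeR).

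A listed 0 occurred for 11 members, in at least 1 library. Those listed at 0 in all MCAO + rTMS libraries and tested were miR-377-3p, miR-300-5p, miR-376c-3p, and miR-154-3p, each between 0.939 and 3.19 CPM in the MCAO libraries. Setting 9 counts as the floor per library, they were at least 3.62-fold, 2.24-fold, 1.83-fold, and 1.58-fold lower, and all were among the 17 lower calls. With each listed 0 set to 9 counts, the adjusted p of miR-154-3p and miR-376c-3p were 0.137 and 0.055, above the threshold. miR-494-5p and miR-666-3p, with too few counts to be tested, were also at 0 in all MCAO + rTMS libraries. miR-410-5p went the other way, at 0, 1.16, and 0.939 CPM against 4.21, 3.04, and 4.08 CPM (adjusted p = 0.042 by edgeR), a call lost on leaving out any library except MCAO replicate 1. miR-377-5p was just outside the threshold (adjusted p = 0.054 by edgeR), with 2 of 3 MCAO + rTMS libraries at 0. The remaining untested members, miR-376c-5p and miR-496-5p, had a count in 1 library of each group.

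The arms were counted apart as well. Of the 24 tested 5p arms, 9 were higher and 6 lower, with a median log2 fold change of 0.085. Of the 29 tested 3p arms, 4 were higher and 10 lower, with a median of -0.40. Outside the cluster, 44 of 175 tested 5p arms were higher and 55 lower (median -0.28), and 53 of 181 tested 3p arms were higher and 50 lower (median -0.16). The difference between arms in these counts was not tested. Both arms were called in 7 hairpins. In 5 of these they went the same way, upward for miR-485 and miR-323 and downward for miR-369, miR-376b, and miR-154. In miR-410 and miR-300 they went opposite ways. miR-154, miR-410, and miR-300 hold listed 0 values. With each listed 0 set to 9, miR-154-3p was not called (adjusted p = 0.137 by edgeR). Such hairpins were not counted outside the cluster. Across the 22 hairpins with both arms tested, Spearman's rho between the 5p and the 3p log2 fold change was 0.41. It was 0.62 across the 17 with a count in every library on both arms. Hairpins outside the cluster were not compared in this way.

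The ratio of 5p to 3p counts within a library needs no scaling between libraries, and its change was tested with limma over the 138 hairpins of the table with both arms tested. Of the 22 in the cluster, 9 had shifted toward 5p and 2 toward 3p in the MCAO + rTMS group, against 22.5% and 19.6% of all 138 (58 hairpins, or 42%, in either direction). With a count in every library on both arms, 6 of 17 had shifted toward 5p and 1 toward 3p, against 23.3% and 24.1% of 116 (47.4% in either direction). The shift of miR-134 was from 96.2%, 97.0%, and 97.6% 5p to 98.7%, 99.2%, and 98.8%, so that the 3p arm, at 4.90 ± 0.945 and 3.54 ± 1.11 CPM, lost in share while the 5p arm gained. The log2 ratio of the arms rose by 1.52 (SE 0.31, adjusted p = 0.0083 by limma). In miR-487b, whose main arm is 3p, the 5p share rose from 0.881% ± 0.215 to 2.25% ± 0.292 (n = 3; log2 ratio 1.40 higher, SE 0.27, adjusted p = 0.0071 by limma). Here the minor 5p arm was at 3.08 ± 0.977 and 2.84 ± 0.614 CPM and was not called.

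For miR-380 the 5p share passed from below to above an even split, at 41.2%, 41.1%, and 44.5% and then at 64.9%, 65.1%, and 51.2% (adjusted p = 0.031 by limma). It rose from 91.5% ± 2.23 to 96.5% ± 1.53 for miR-379, from 14.3% ± 0.884 to 23.3% ± 2.15 for miR-667, and from 1.49% ± 0.0664 to 3.34% ± 1.40 for miR-323, with adjusted p of 0.034, 0.021, and 0.033 by limma. The one move toward 3p without a listed 0 was that of miR-299a, from 30.1% ± 7.67 to 14.2% ± 3.50 5p (adjusted p = 0.042 by limma), which rests on the 3p arm that cannot be told apart from miR-299b-3p. For miR-485 the arms kept a ratio close to that of the MCAO group (60.4% ± 1.23 versus 56.3% ± 3.38 5p, log2 difference -0.24, SE 0.22, adjusted p = 0.42 by limma). Only 3 of the 11 called shifts, those of miR-134, miR-487b, and miR-300, held in every alternative, which was not counted for hairpins outside the cluster. The calls of miR-380, miR-379, miR-667, and miR-323 were each lost without MCAO replicate 2, MCAO replicate 3, or MCAO + rTMS replicate 2, and that of miR-299a on leaving out any library except MCAO replicate 2, with adjusted p up to 0.153. Without MCAO replicate 1 the calls of miR-380, miR-379, and miR-323 were lost too, and without MCAO + rTMS replicate 1 those of miR-380 and miR-667.

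**Figure D3:**
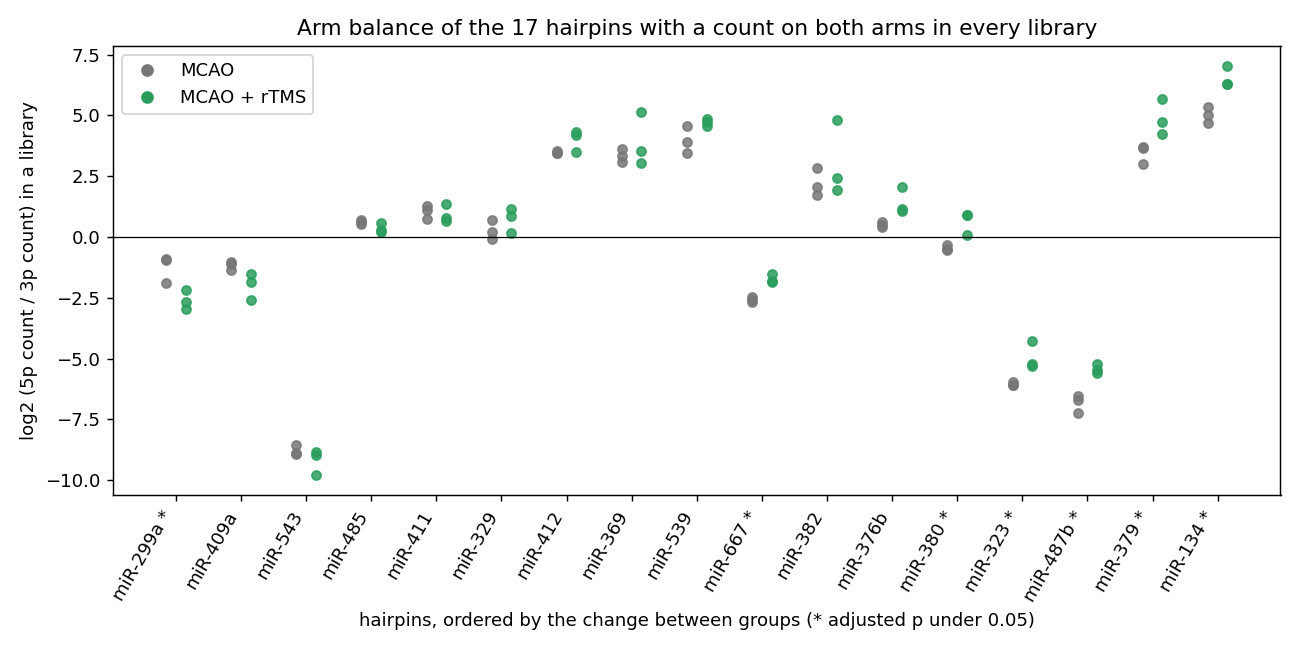
Log2 ratio of 5p to 3p counts in each library for the 17 hairpins of the cluster with a count in every library on both arms; points are libraries, and an asterisk marks an adjusted p under 0.05 by limma. The MCAO + rTMS points lie above the MCAO points for miR-134, miR-487b, miR-380, miR-379, miR-667, and miR-323 and below them for miR-299a.

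Base composition and direction went together. The naming rule did not use sequence. Of the 12 tested members with a GC content under 40%, 0 were higher and 11 lower. Of the 22 from 40% to under 50%, 3 were higher and 5 lower, and of the 21 at 50% or more, 11 were higher and 1 lower. The same bands outside the cluster held 62 rows with 6 higher and 25 lower, 118 rows with 30 and 35, and 179 rows with 61 and 42. The bands were drawn after the values had been seen.

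Over the 55 members, Spearman's rho between GC content and log2 fold change was 0.67 (Pearson's r = 0.57). It was 0.68 over the 48 with a count in every library and 0.24 over 359 tested rows outside the cluster with a sequence. The difference between the 2 values was not tested, and points within a group of rows share libraries and, in part, hairpins. On library totals rho among members was 0.66. GC content and log2 mean count were only weakly related among members (rho 0.19). Position along the cluster was nearly unrelated to the log2 fold change (rho -0.053). For hairpins with both arms tested, rho between the GC difference of the arms and their shift was 0.48 (n = 22), and it was 0.38 over the 17 with a count in every library on both arms.

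GC content also moved with level inside each group, where no treatment differs. Over 213 miRNAs, rho between GC content and the deviation of a library from its group mean was -0.33, 0.021, and 0.30 in MCAO replicates 1 to 3 and -0.39, -0.12, and 0.34 in MCAO + rTMS replicates 1 to 3. Its part in the differences between groups was not tested.

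**Figure D4:**
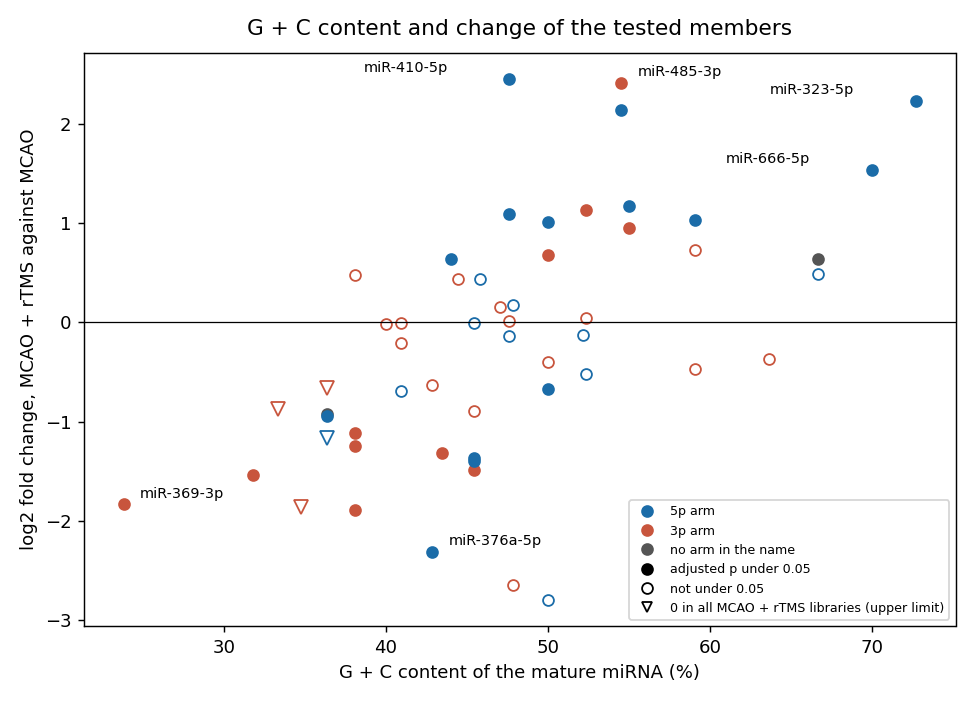
GC content of the mature sequence (percent) against log2 fold change (MCAO + rTMS over MCAO, TMM-scaled) for the tested members. Of the 12 members under 40% GC, 11 were called lower and 1, miR-382-3p, was not called, and 11 of the 21 at 50% or more were called higher.

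Some members resemble each other. miR-376b-5p and miR-376c-5p differ by an edit distance of 2, miR-379-3p and miR-411-3p by 3, and miR-154-3p and miR-369-3p by 4. How reads matching more than 1 miRNA were counted is not given in the sources used here, so the split between such neighbours is uncertain. With miR-299a-3p and miR-299b-3p added together, the calls were again 14 higher and 17 lower.

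The other miRNAs of the Dlk1-Dio3 domain, outside the cluster, were also mixed. Of 24 tested, 7 were higher and 6 lower, with a median log2 fold change of -0.055. The most abundant, miR-127-3p, rose from 24181 ± 2220 to 58826 ± 10125 CPM (n = 3; log2 fold change 1.28, adjusted p = 0.0012 by edgeR), and miR-136-5p fell from 24.1 ± 2.59 to 8.62 ± 5.20 CPM (n = 3; log2 fold change -1.49, adjusted p = 0.016 by edgeR).

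Marker miRNAs of cell types that peri-infarct cortex can hold moved as well. Of the 5 neuronal markers, 1 was higher and 3 lower, and their summed level was 177658 to 241301 CPM in the MCAO group and 287592 to 458743 CPM in the MCAO + rTMS group. The sum was carried by miR-128-3p, the one called higher (212040 ± 34859 versus 341038 ± 98960 CPM, n = 3), while miR-124-5p, miR-137-3p, and miR-138-5p were called lower, with log2 fold changes of -0.997, -2.16, and -1.65. The cluster is mainly neuronal, so these values stand beside every result above. Of 5 microglial and myeloid markers, 0 were higher and 4 lower (sum 695 to 718 versus 312 to 549 CPM), and of 2 tested oligodendrocyte markers, 1 was higher and 0 lower (572 to 786 versus 963 to 2106 CPM), with miR-219a-5p at 0 in at least 1 library. Of 4 endothelial and mural markers, 1 was higher and 1 lower (4931 to 9758 versus 6344 to 9569 CPM). Of 2 tested red blood cell markers, miR-486 was higher (log2 fold change 1.72) and miR-451-5p lower (-1.61), and miR-144-3p was not listed. Their sum was 141 to 302 versus 513 to 637 CPM. Of 3 skeletal muscle markers, miR-1-3p and miR-206-3p were higher and miR-133a-3p lower (sum 76.8 to 135.8 versus 239 to 391 CPM). The part of cell composition in the cluster's differences was not tested.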

How the data were processed

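Small RNA libraries (NEBNext kit, Illumina sequencer) of 3 MCAO and 3 MCAO + rTMS rats were used. The deposited table holds raw counts per mature miRNA as the authors made them. The submitters' processing notes name bcl2fastq, BWA, DESeq2, and rn6 with no role, and the miRNA database and the rule for reads with several matches are not given in the sources used here. A second deposited file holds the authors' own fold changes and p-values and was not used. Libraries carry no molecular identifiers, so counts include PCR copies.

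Counts of all rows were filtered with filterByExpr, scaled by TMM, and tested with the quasi-likelihood fit of edgeR 4.0.16 (R 4.3.3), with Benjamini-Hochberg adjustment and a threshold of 0.05. SE is the size of the log2 fold change divided by the square root of F. Arm ratios, log2 of (5p + 0.5)/(3p + 0.5), were tested with limma 3.58.1. With 3 against 3, an exact permutation test cannot go below p = 0.1, so none was run. Labels call the libraries separate samples. The p-values set the difference between groups against the spread between libraries, which is estimated in part across all tested rows or hairpins. Both tests were tried on simulated data with planted changes. The level test called 78.3% of these and the arm test 44.2%, so an uncalled arm shift can be a missed one.

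The members, lists, and tests were chosen with earlier results of these data known. Named members are the 8 largest called increases and 8 largest called decreases with a mean count above 200, the 8 most abundant, both arms of the 6 hairpins with the largest arm difference, members known from synapse work, members at 0 in all libraries of a group, and those next to the threshold. miR-666-5p, miR-410-5p, and hairpins named for a called arm shift were added after their values were seen, as were the bands of GC content and level. Alternatives were RLE, upper-quartile, and library-total scaling, scaling without the 10 most abundant miRNAs, DESeq2 1.42.0, limma-voom, other filters, a replicate block, and leaving out each library. Listed 0 values set to 9, and miR-299a-3p with miR-299b-3p together, were added after seeing the data.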

Additional observations from a re-analysis of the deposited data

How the results depend on the processing

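Of the results on single members, those with a call kept their direction under every alternative, except miR-541-5p on library totals (-0.011), which was no longer called. Of the named members without a call, 3 changed sign, while miR-134-3p, miR-377-5p, and miR-541-3p stayed below 0 and were called lower in 1, 5, and 5 alternatives. miR-381-3p was at -0.15 on library totals. miR-329-3p came to 0.048 under RLE and also under DESeq2 (0.048), to 0.068 where scaling ignored the 10 leading miRNAs, to 0.088 with each listed 0 set to 9, and to -0.064 to 0.12 on leaving out a library. miR-543-3p was at -0.27 with upper-quartile factors, -0.68 on library totals, -0.11 with limma-voom, -0.029 over rows without a listed 0, -0.11 with the replicate block, and -0.48 to 0.24 on leaving out a library. Leaving out a library moved the arm balance of miR-377 between -0.034 and 2.44, and setting each listed 0 to 9 put that of miR-154 at -0.065.

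The median log2 fold change of the members was -0.43 with upper-quartile factors and -0.77 on library totals. On library totals 4 members were called higher and 27 lower, against 55 and 208 of all 452 tested rows. With no filter, the rank correlation of GC content and fold change among the members was 0.55. The summed share on the TMM-scaled total was 1.12% versus 1.69%. Leaving out each library gave 10 to 12 members higher and 12 to 18 lower. Over all tested rows these calls were 88 to 122 and 84 to 131. For the arms it gave 3 to 8 hairpins of the cluster toward 5p and 1 to 3 toward 3p. Over all 138 hairpins of the table the main fit gave 31 and 27, and leaving out a library was not counted over them. With a count above 0 in every library on both arms, 1 hairpin of the cluster was called toward 3p, against 28 of 116 over the table. Labels do not say whether libraries with the same replicate number belong together. Deviations of same-number libraries correlated at r = 0.27, -0.084, and -0.11, and with 3 libraries a group these values cannot decide it. A replicate block gave 13 members higher and 10 lower, against 98 and 82 of all 452 tested rows. It gave 5 hairpins of the cluster toward 5p and 1 toward 3p, which was not counted over all hairpins of the table. Where no cause is given, the cause was not tested. Depth limits the members at 0 to the bounds given, since up to 9 counts can be hidden.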
